A study of Mus musculus with 7 samples.

Results

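MITF binding was compared between bone marrow-derived myeloid precursors (MPs) and the same kind of culture after 36 h of RANKL, the cytokine that drives osteoclast (OC) formation. The members are all peaks on chromosomes 1 to 19 and X in the MITF peak lists of the 2 conditions, 5402 peaks from MPs and 3503 peaks from the 36 h cells, which is 8905 of the 239001 peaks on all chromosomes in the lists of the 7 libraries of the study. A MITF peak was called matched when it overlapped a MITF peak of the other condition by at least 1 bp. The study mapped PU.1 and MITF by ChIP-Seq, which sequences the DNA fragments recovered with an antibody and calls loci where the fragments (tags) pile up as peaks. Both factors were mapped in MPs and after 36 h and 72 h of RANKL, with IgG from MPs as the control.

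All libraries came from flushed bone marrow of C57BLACK6 mice 4 to 6 weeks of age, cultured on plastic for 3 days with 50 ng/ml recombinant human CSF1, which expands the macrophage lineage. MPs received CSF1 only. The 36 h cells also received 100 ng/ml RANKL for 36 h. The pull-down used 5 µg of antibody to MITF, which the authors raised themselves. Neither the number of mice behind a library nor the purity of the cultures is given in the sources used here, and each condition is 1 library. No difference between MPs and 36 h cells therefore has a replicate check, no test between the conditions was made, and the 95% Wilson intervals given with shares cover counting error only.

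MITF belongs to the MiT/TFE family, whose members bind E-box sequences as dimers through a helix-loop-helix and zipper domain, and it is required for OC differentiation as well as for pigment cells. PU.1 is the ETS-family factor that specifies the myeloid lineage and binds purine-rich sequences with a GGAA core. The 2 factors are known partners at OC genes, and RANKL signals through its receptor RANK to induce NFATc1, the main regulator of OC genes.

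The windows that follow, which reach 75 bp to either side of the peak center, show the kinds of sequence found at the highest MITF peaks of each class, 2 for each. The sequences are the plus strand of the mm9 genome, 5′ to 3′. Capitals mark matches on either strand to GAGGAAGT, a high-affinity form of the PU.1 site, or to the MITF motifs CACGTG and TCATGTG.
Matched, Slc22a27 (chr19:8094561-8094711): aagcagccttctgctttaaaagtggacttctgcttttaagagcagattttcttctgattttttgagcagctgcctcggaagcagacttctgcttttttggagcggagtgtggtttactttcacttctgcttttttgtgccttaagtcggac
Matched, Tax1bp1 (chr6:52792728-52792878): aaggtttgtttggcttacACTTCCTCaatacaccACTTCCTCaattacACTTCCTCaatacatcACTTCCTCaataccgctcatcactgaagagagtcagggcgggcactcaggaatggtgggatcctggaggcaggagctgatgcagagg
MP only, Stxbp3a (chr3:108600785-108600935): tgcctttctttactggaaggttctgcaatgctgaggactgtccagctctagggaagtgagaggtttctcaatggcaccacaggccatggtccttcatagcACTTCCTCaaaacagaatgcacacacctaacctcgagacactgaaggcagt
MP only, Trib2 (chr12:16099569-16099719): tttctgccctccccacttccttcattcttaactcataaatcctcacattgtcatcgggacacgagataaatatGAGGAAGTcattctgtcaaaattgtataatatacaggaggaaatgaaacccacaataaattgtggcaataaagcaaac
36 h only, run on chromosome 17, first (chr17:39982573-39982723): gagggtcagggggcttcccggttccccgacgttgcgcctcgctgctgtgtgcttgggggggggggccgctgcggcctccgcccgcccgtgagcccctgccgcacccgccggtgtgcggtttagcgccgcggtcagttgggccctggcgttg
36 h only, run on chromosome 17, second (chr17:39980729-39980879): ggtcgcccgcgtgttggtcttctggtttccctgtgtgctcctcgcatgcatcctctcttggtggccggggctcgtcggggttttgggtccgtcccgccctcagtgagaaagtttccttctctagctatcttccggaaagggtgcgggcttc
36 h only with PU.1, Qrfp (chr2:31618946-31619096): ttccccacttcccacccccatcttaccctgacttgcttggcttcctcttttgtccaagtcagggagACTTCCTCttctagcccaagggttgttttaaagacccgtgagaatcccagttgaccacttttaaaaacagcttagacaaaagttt
36 h only with PU.1, Jarid2 (chr13:44633731-44633881): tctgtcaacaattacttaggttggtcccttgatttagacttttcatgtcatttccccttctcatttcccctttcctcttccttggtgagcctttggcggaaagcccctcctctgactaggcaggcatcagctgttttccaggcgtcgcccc
None of the 8 windows held CACGTG or TCATGTG, and 4 held GAGGAAGT. The intronic window 129 kb downstream of the start of Tax1bp1, the gene of a ubiquitin-binding autophagy adaptor, held it 4 times. It stood under the highest MP score of the matched peaks. Here and below, intronic and exonic mean within an intron or exon of any annotated gene, which need not be the nearest gene named. Both MP-only windows held 1 copy. The Stxbp3a window was intronic and 42.6 kb downstream of the start of that gene, which encodes a vesicle fusion regulator. The other was intergenic and 276 kb upstream of Trib2, a pseudokinase gene. The first pair of 36 h-only windows lay in a run of wide peaks on chromosome 17 that the file assigns to the RefSeq transcript NR_046233, and their GC contents were 76.2% and 60.9%. The last pair was chosen after the values were seen, as the highest 36 h-only peaks of at most 300 bp with a PU.1 peak, and the Qrfp window held the PU.1 motif while the Jarid2 window held none of the 3 motifs.

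Of the 5402 MP peaks, 2508 (46.4%, interval 45.1 to 47.8) had a MITF peak at 36 h and 2894 (53.6%) had none. Of the 3503 peaks at 36 h, 2506 (71.5%, 70.0 to 73.0) had a MITF peak in MPs and 997 (28.5%) had none. The 2506 matched pairs had centers a median of 15 bp apart, and 95.9% of them were within 50 bp. These shares depend on the threshold of the lists. At scores of at least 2 times the lowest of each list, 73.1% of MP peaks and 41.0% of 36 h peaks had a partner, which turns the order of the lists, and with equal numbers of peaks 59.9% of MP peaks had one. A peak with no partner is one that did not reach the other list, and scores below the limits of the lists are not known.

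How often a site was shared followed its rank. In the top 10% of the MP list by Peak Score, the tag number of a peak scaled to a common library size, 94.3% of 540 peaks had a 36 h partner (interval 92.0 to 95.9). In the bottom 10%, where every peak had the lowest score of 9.3, only 16.5% of 540 had one (13.6 to 19.8). The 36 h list fell less steeply, from 88.9% of 350 peaks in its top 10% (85.1 to 91.7) to 48.6% of 350 in its bottom 10% (43.4 to 53.8). MP peaks with a partner had a median score of 16.6, and MP peaks without one had a median of 11.4, which are 16 and 11 tags. The lowest MP peaks rest on 9 tags, a count whose exact 95% Poisson interval runs from 4.12 to 17.1. The plot of partner shares by rank gives the steps between.

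**Figure D1:**
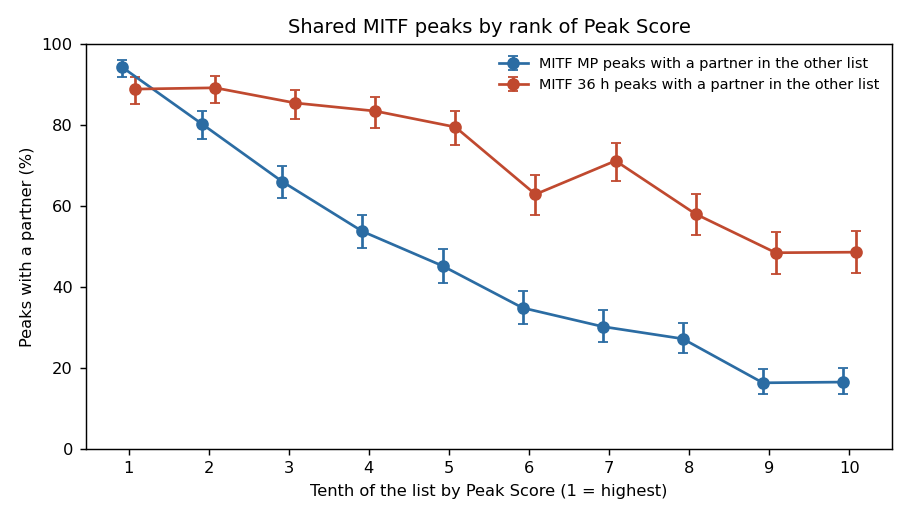
Share of MITF peaks with a partner in the other list (y axis, percent) in 10 equal classes of the list ranked on Peak Score (x axis, 1 is highest), for MP peaks (blue) and 36 h peaks (red), with 95% Wilson intervals. The MP share falls from 94.3% to 16.5% and the 36 h share from 88.9% to 48.6%.

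The 36 h list was made in a way that the MP list was not, and this touches each comparison of scores. Every MP peak was 150 bp wide, with scores from 9.3 to 136.1. The 36 h peaks were 150 to 1387 bp wide with a median of 169 bp, and their scores ran from 9.7 to 1012.3. Widths at 36 h gathered at 150, 168, 188 and 206 bp. The 1398 peaks of 150 bp (39.9% of the list) had a median score of 10.7, and 18 of them reached 19.4, which is 2 times the lowest score of the list. None of the 2105 wider peaks was below that value, and the lowest of them scored 19.5. Beside peaks of the runs described later, the 5 widest peaks included 1 at Esr1, the estrogen receptor alpha gene, with 960 bp, a score of 255.0, an MP partner and PU.1. Width and score had a Spearman correlation of 0.90 over the 3503 peaks, which share 1 library. The 2 MITF libraries were alike in depth, since 1 tag was worth 1.04 score units in MPs and 0.97 at 36 h.

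In matched pairs the 36 h score was a median of 1.63 times the MP score, but this ratio moved with width. It was 0.85 in the 784 pairs with a 36 h peak of 150 bp and 5.01 in the 33 pairs with a 36 h peak over 300 bp. Dividing the 36 h score by the number of 150 bp windows that its width implies, at a median step of 20 bp, gave a median ratio of 0.77 over all pairs, with class medians from 0.85 at 150 bp to 0.41 over 300 bp. The direction of a score change between MPs and 36 h cells thus depends on how width is treated, so only ranks are compared from here on, and for most sites named for a rise or fall the change in rank after this division is given as well. The division was chosen after the data were seen.

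**Figure D2:**
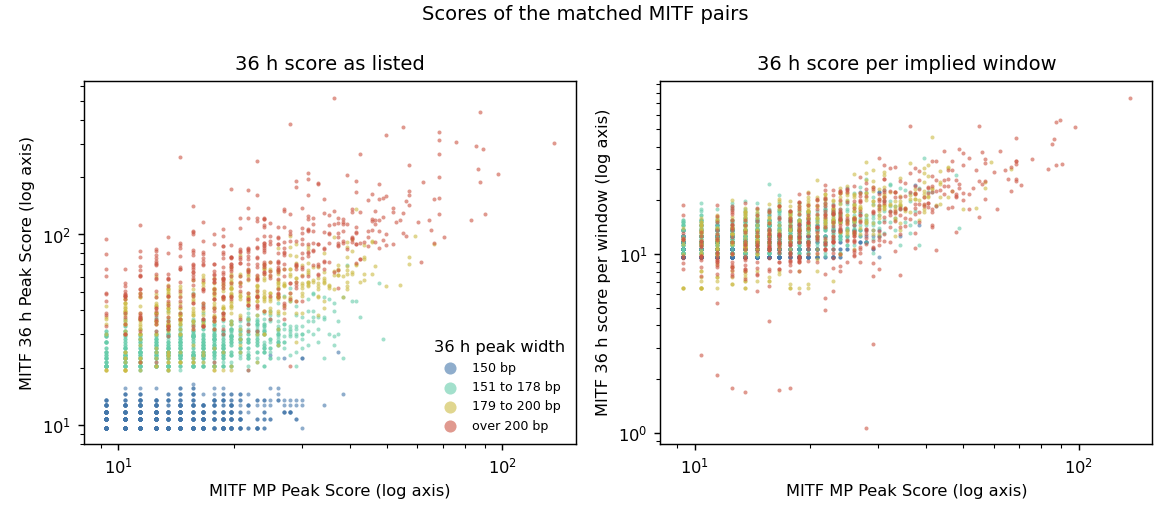
Peak Score of the 2506 matched MITF pairs in MPs (x axes) and at 36 h (y axes) on log axes, with the 36 h score as listed (left) and divided by the number of windows implied by the peak width (right). Points are pairs colored by 36 h width, and on the left the width classes form separate bands, with no wider peak below 19.5.

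The order of the sites was partly kept. Across the 2506 pairs, which come from 2 libraries and are not independent, the Spearman correlation of MP and 36 h scores was 0.56 as listed and 0.55 per window. Among the 784 pairs with a 36 h peak of 150 bp, where the range of 36 h scores is narrow, it was 0.19. Each pair was given its percentile among the pairs at either stage. At 36 h 428 pairs (17.1%) had moved up by at least 25 percentile points and 417 (16.6%) had moved down as far. With percentiles taken in each whole list instead of among the pairs, 9.66% moved up and 26.7% moved down, so the balance of rises and falls depends on that choice. Pairs of MP and 72 h MITF peaks, from lists that both hold 150 bp peaks only, gave 17.0% up and 15.5% down over 2843 pairs. Both comparisons use the same MP library.

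Which pairs moved was less certain than how many. Of the 428 that rose, 240 (56.1%) also rose by 25 points per window and 89 (20.8%) went below 0. Of the 417 that fell, 246 (59.0%) also fell by 25 points per window. Peaks of 150 bp made up 72.2% of the pairs that fell but 31.3% of all pairs, and peaks of 200 bp or more made up 36.7% of those that rose but 20.8% of all pairs.

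The sites highest at both stages lay mostly far from gene starts. The highest mean percentile belonged to a site 54.1 kb upstream of Slc22a27, an organic anion transporter gene, with a score of 87.3 in MPs and 440.9 at 36 h. The Tax1bp1 site followed with 136.1 and 300.8. Others of the top 10 were near Pltp, which encodes phospholipid transfer protein (85.2 and 290.1), Nnmt, which encodes nicotinamide N-methyltransferase (97.6 and 206.4), Antxr2, an anthrax toxin receptor (86.2 and 221.0), and Sf3b2, a splicing factor (75.8 and 305.6). The other top sites were nearest Sfi1, Atp1b3, Umodl1 and Tbc1d14. The Sfi1 site, at chr11:3005475-3005704, lay between IgG peaks at chr11:3000381-3002882 and a run of 36 h-only peaks described later. PU.1 was present at both stages at each of the 10, and in 9 of them it was above the 99th percentile of the PU.1 list in MPs and at 36 h. The exception, at Umodl1, was at 98.6 in MPs and 99.5 at 36 h.

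The largest rises began at low MP scores, which follows from picking pairs by the size of their rise in percentile. An MP score of 9.3 rests on 9 tags. The intronic site nearest Ptk2b, which encodes the kinase Pyk2 of the OC adhesion ring, had a score of 9.3 in MPs and 78.8 at 36 h. This was a rise from percentile 3.07 to 90.4. Its rank per window rose by 53.8 points. An intronic site nearest Wipf1, a WASP-interacting protein gene, went from 9.3 to 66.2, a rise of 83.3 points as listed and 77.7 per window. A site near Sbno2, a gene known to act in OC fusion, went from 11.4 to 75.9, and its percentile rose by 71.8 points as listed and 70.7 per window, while its PU.1 percentile went from 87.7 to 99.4. The largest listed rise, 91.0 points or 85.5 per window, was at a site 463 kb from the nearest gene, Gm6657, where PU.1 went from percentile 61.9 to 93.5. Tmed10, 1700064H15Rik, Rpp21 and Rreb1 also rose by more than 40 points in both rankings. Rab11a rose by 78.1 points as listed but went down by 0.14 per window, and Dapk1 rose by 76.3 and 21.6.

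The largest falls ended at low 36 h scores, which follows from picking them by size in the same way. All 10 were peaks of 150 bp at 36 h. An intronic site nearest Cadm1, a cell adhesion molecule gene, had a score of 30.1 in MPs and 9.7 at 36 h, from percentile 89.1 to 5.63. Its PU.1 percentile was 94.7 in MPs and 83.6 at 36 h. The site 871 bp upstream of Cyp27a1, the sterol 27-hydroxylase gene, had 23.9 and 9.7. Trps1, a zinc finger repressor gene, had 29.1 and 10.7, and its PU.1 percentile was 93.3 and 83.6. The others were nearest Prcp, Ptcd2, Eml6, Lyrm4, Plxnd1, Cd47, the ligand of the inhibitory receptor SIRPα, and Thbs1, a ligand of CD47. All 10 also fell by more than 60 points per window.

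Almost every MITF peak lay on a PU.1 peak of the same stage. In MPs 5297 of 5402 MITF peaks (98.1%, interval 97.7 to 98.4) overlapped a PU.1 peak, and at 36 h 3318 of 3503 (94.7%, 93.9 to 95.4) did. Matched peaks had PU.1 at 98.96% in MPs and at 99.04% at 36 h. MP-only peaks had it at 97.3% (96.6 to 97.8) and 36 h-only peaks at 83.9% (81.4 to 86.0). PU.1 was already present in MPs at 828 of the 836 36 h-only MITF sites that had PU.1 at 36 h (99.04%), and it remained at 36 h at 2774 of the 2815 MP-only sites that had it in MPs (98.5%). At matched sites with PU.1 at their own stage, PU.1 was also listed at the other stage at 99.8% in the 36 h list and 99.6% in the MP list. Over all PU.1 peaks, 56286 overlapping pairs were found between the 76159 peaks of MPs and the 71879 at 36 h. The share of equally high PU.1 peaks listed at both stages was not worked out, so the persistence of PU.1 is not shown to be particular to these sites.

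MITF peaks sat on the highest PU.1 peaks. Of the top 10% of PU.1 peaks by score, 55.4% carried a MITF peak in MPs (interval 54.3 to 56.5) and 38.5% at 36 h (37.4 to 39.6). In the next 10% the shares were 10.9% and 5.27%, and in the classes below the median none was above 0.0788%. The median PU.1 percentile under a matched MITF peak was 97.4 in MPs and 97.5 at 36 h. It was 93.3 under MP-only peaks and 91.8 under 36 h-only peaks at their own stage.

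**Figure D3:**
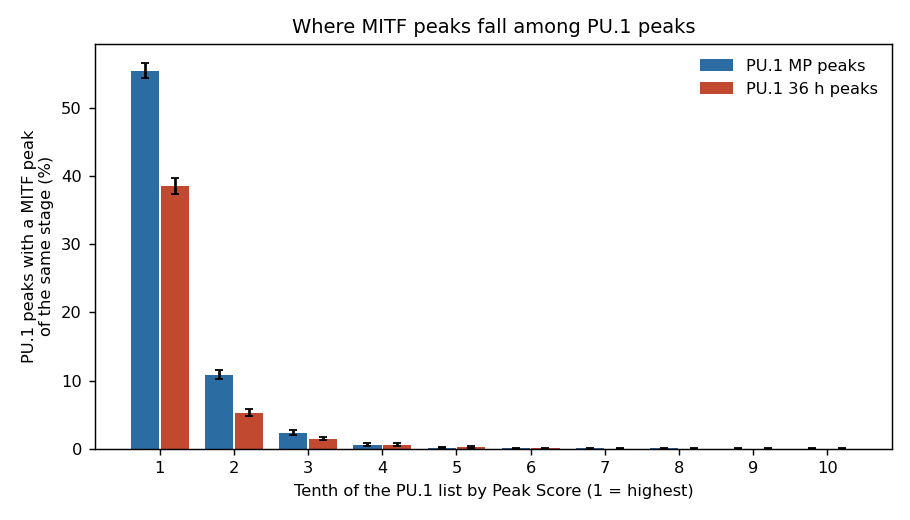
Share of PU.1 peaks that overlap a MITF peak of the same stage (y axis, percent) in 10 equal classes of the PU.1 list ranked on Peak Score (x axis, 1 is highest), for MPs (blue) and 36 h (red), with 95% Wilson intervals. The top class holds 55.4% and 38.5%, and from the fourth class on no share is above 0.604%.

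Among MP sites with PU.1, whether a site was listed again went with the score of PU.1 as well as that of MITF. Among MP MITF peaks with a score under 12, the share with a 36 h partner was 13.9% of 447 where PU.1 was below percentile 85, 22.3% of 1210 between 85 and 95, and 33.3% of 616 between 95 and 99. Among those with a MITF score from 12 to 16 the same classes gave 32.3% of 65, 37.5% of 523 and 53.2% of 729. Above a MITF score of 24, 97.3% of 334 peaks with PU.1 at or above percentile 99 had a partner (interval 94.96 to 98.6). PU.1 percentiles also moved slightly with MITF between the stages. The median change from MPs to 36 h was +1.21 points at 828 36 h-only sites (quartiles -1.19 and 3.73), -0.999 at 2774 MP-only sites (-3.94 and 0.99) and 0.02 at 2477 matched sites. A PU.1 rise of 25 points or more was seen at 9 36 h-only sites, with 0 falls of that size, and at 4 MP-only sites, with 33 falls. The 9 rises are 1.09% of the 36 h-only sites and the 33 falls 1.19% of the MP-only sites. Over all 56286 overlapping PU.1 pairs the shares were 5.46% up and 6.59% down, with a median change of -0.53. The median PU.1 percentile in MPs was 90.2 at the 36 h-only sites, 93.4 at the MP-only sites and 61.9 over all pairs. A site near the top of the list has little room to rise, so these shares cannot tell whether PU.1 changed less at MITF sites.

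The 36 h-only peaks without PU.1 gathered in a few places. Unmatched 36 h peaks that followed each other at gaps of at most 10 kb, 4 or more in a row, formed 6 runs with 109 peaks, a grouping chosen after the data were seen. PU.1 overlapped 9 of these 109 peaks (8.26%), and 2.75% were listed for MITF at 72 h. Of the 888 36 h-only peaks outside the runs, 827 (93.1%, interval 91.3 to 94.6) had PU.1 and 38.2% had a MITF peak at 72 h. Without the runs the PU.1 share of the whole 36 h list was 97.5% (96.9 to 98.0).

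The runs also held the highest and widest peaks of the list. One run, with 47 peaks at chr11:3022207-3095280 by the genes Sfi1 and Pisd-ps3, had scores up to 364.0 and the widest peak, 1387 bp. Another, with 34 peaks at chr1:90110159-90204169 about Heatr7b1 and Hjurp, reached 74.9. The run at chr17:39979965-39985868 had 5 peaks, among them the 2 highest of the list with scores of 1012.3 and 958.8. The others were 14 peaks by Gm17379 on chromosome X, 5 by Vmn1r2 on chromosome 4 and 4 by Vmn1r238 on chromosome 18. Within these 6 regions the MP list had 2 peaks in all, and the 72 h list had 3. IgG peaks lay in 3 of the regions, 3 of them in that on chromosome 17, where the peak scoring 958.8 overlapped an IgG peak. The IgG library was made from MPs only, so IgG signal in 36 h cells is not known, and its part in these runs was not tested. In MPs 1 run of this kind was found, 4 peaks by the leukocyte receptor gene Cd84 with scores from 9.3 to 14.5, and all 4 had PU.1.

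Apart from the runs, some high peaks were seen at 1 stage only. In MPs the highest peak without a partner was the Stxbp3a site with a score of 41.6, or 40 tags, rank 97 of the list. It was followed by Trib2, Ssr1 and Zfp710 at 33.2, Abcg3 and 9430038I01Rik at 32.2, the chaperone gene Hspa8 at 30.1, and the inflammasome gene Nlrc4, Srbd1 and Wipf1 at 29.1. Each lay on a PU.1 peak at both stages, and 7 of the 10 had a MITF peak again at 72 h. Among all 2894 MP-only peaks 840 (29.0%, interval 27.4 to 30.7) had a MITF peak at 72 h, 46.1% in the top 20% by score and 18.5% in the bottom 20%. Of the 36 h-only peaks 34.3% (31.4 to 37.3) had one, and of the matched MP peaks 79.9% (78.2 to 81.4). At 36 h the 10 highest unmatched peaks all lay in the runs on chromosomes 11, 17 and 18, and only the peak scoring 958.8 overlapped PU.1.

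Wipf1 held sites of both kinds. Its intronic site 53.8 kb from the start was among the largest rises, and its site 2.78 kb from the start, with a score of 29.1 in MPs, had no partner at 36 h. Both had PU.1 at both stages.

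Most MITF peaks lay far from gene starts in every class, with small differences between classes. Peaks within 1 kb of the start of a protein-coding gene made up 5.18% of matched MP peaks (interval 4.38 to 6.12), 6.98% of MP-only peaks (6.11 to 7.97) and 4.91% of 36 h-only peaks (3.74 to 6.44). Introns held 49.3% of matched MP peaks (47.4 to 51.3) and 53.3% of MP-only peaks (51.5 to 55.1), and intergenic sequence held 45.4% (43.4 to 47.3) and 40.7% (38.96 to 42.5). Exons held 5.23% of matched 36 h peaks (4.42 to 6.17) and 8.02% of 36 h-only peaks (6.49 to 9.88). The median distance to a start was 23.1 kb in both lists. The gene with the most MP peaks was Myc, a growth regulator needed for OC formation, with 11 peaks downstream of it, the nearest at 8.73 kb, of which 5 had a partner. Maf followed with 9 MP peaks and Fam49b, Tcf7l2 and Klf6 with 8 each. At 36 h 8 peaks were nearest Nrp2, a semaphorin receptor gene, behind 4 genes of the runs, Sfi1 with 49, Gm17379 with 15, Heatr7b1 with 14 and Hjurp with 10.

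The nearest transcripts that the files name were less alike than the sites. Of 4783 transcripts named by either list, 1441 (30.1%, interval 28.8 to 31.4) were named by both, which is 40.1% of the 3594 of the MP list and 54.8% of the 2630 of the 36 h list. The lists drew on different sets of transcripts. Predicted transcripts made up 6.31% of the names in the MP list and 0% of those in the 36 h list, and only 65.3% of the matched pairs had the same name in both. With the nearest protein-coding gene of 1 annotation for both lists, 99.96% of pairs agreed and 2108 of 4060 genes (51.9%, 50.4 to 53.5) were shared, 58.4% of the MP genes and 82.4% of the 36 h genes. The gene groups that follow use this assignment. The share of all protein-coding genes with a MITF peak was not worked out. The number of genes with a peak in a group therefore does not show that the group is richer in MITF than other genes.

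Of 30 signalling genes of the CSF1 and RANK receptors, 21 had a MITF peak in MPs and 20 at 36 h. Both lists shared 19 of them, where 58.4% of all MP genes were shared, and 8 had no peak in either list. The genes of this group had 49 MP peaks, of which 16 (32.7%, against 53.6% of all MP peaks) lacked a partner. They had 38 peaks at 36 h, of which 5 lacked one (13.2%, against 28.5%). Of their 33 pairs 12 (against 16.6% of all pairs) moved down by 25 points or more and 4 (against 17.1%) moved up. Per window 3 of the 12 still fell that far and all 4 that rose did so.

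Tnfrsf11a, the gene of RANK itself, had 2 pairs that moved apart. The site 6.55 kb inside the gene had a score of 12.5 in MPs and 77.9 at 36 h (chr1:107683734-107683973), a rise of 64.6 points as listed and 51.1 per window. The site 33.3 kb upstream had 13.5 and 9.7, a fall of 27.1 points as listed and 21.9 per window. PU.1 stood at both sites at both stages, with scores of 153.5 and 146.3 at the first and 160.3 and 122.7 at the second.

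Csf1r, which encodes the receptor for CSF1, had 3 MP peaks. The one in an exon 259 bp from its start had a score of 18.7 in MPs and 9.7 at 36 h (chr18:61265410-61265560), and its percentile fell by 56.2 points as listed and by 51.0 per window. Its site at 15.2 kb had 17.7 and 36.0, which was 8.76 points up as listed and 52.7 points down per window, and its other site, scoring 12.5 in MPs, had no partner. Fcer1g, the gene of the ITAM adaptor FcRγ, had a peak 348 bp upstream with scores of 41.6 and 103.2 at percentiles 96.3 and 95.2, or 82.8 per window. Tyrobp, the gene of the ITAM adaptor DAP12, had a weak pair 19.1 kb upstream with scores of 11.4 and 9.7, at percentiles 17.997 and 5.63. Syk, the kinase that ITAM adaptors recruit, had 3 MP peaks and 3 at 36 h, all matched, and its highest, 10.5 kb upstream, stood at percentiles 98.8 and 98.6.

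Other members of the group moved in both directions. Inpp5d, which encodes the inhibitory phosphatase SHIP1, had 7 MP peaks and 4 at 36 h, and its 4 pairs moved up as listed, by 18.04 to 42.8 points, although 1 of them went down by 30.01 per window. Plcg2, which encodes the phospholipase that drives calcium signals, had 4 pairs that all moved down, 3 of them by 27.1 to 30.9 points and by 19.7 to 21.9 per window. Grb2, an adaptor of the CSF1 receptor, had 3 pairs, of which the intronic one at 15.6 kb went from 29.1 to 24.3, a fall of 43.9 points as listed and 40.9 per window. Btk, a kinase acting with Plcg2, had an intronic site 406 bp from its start that went from 15.6 to 9.7, a fall of 40.3 points as listed and 35.1 per window. The pair nearest Sirpa fell by 36.7 points and that at the start of Dok3, an adaptor that restrains ITAM signals, by 41.6, but per window these falls were 20.3 and 9.48. The plot of the 33 pairs shows both rankings.

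**Figure D4:**
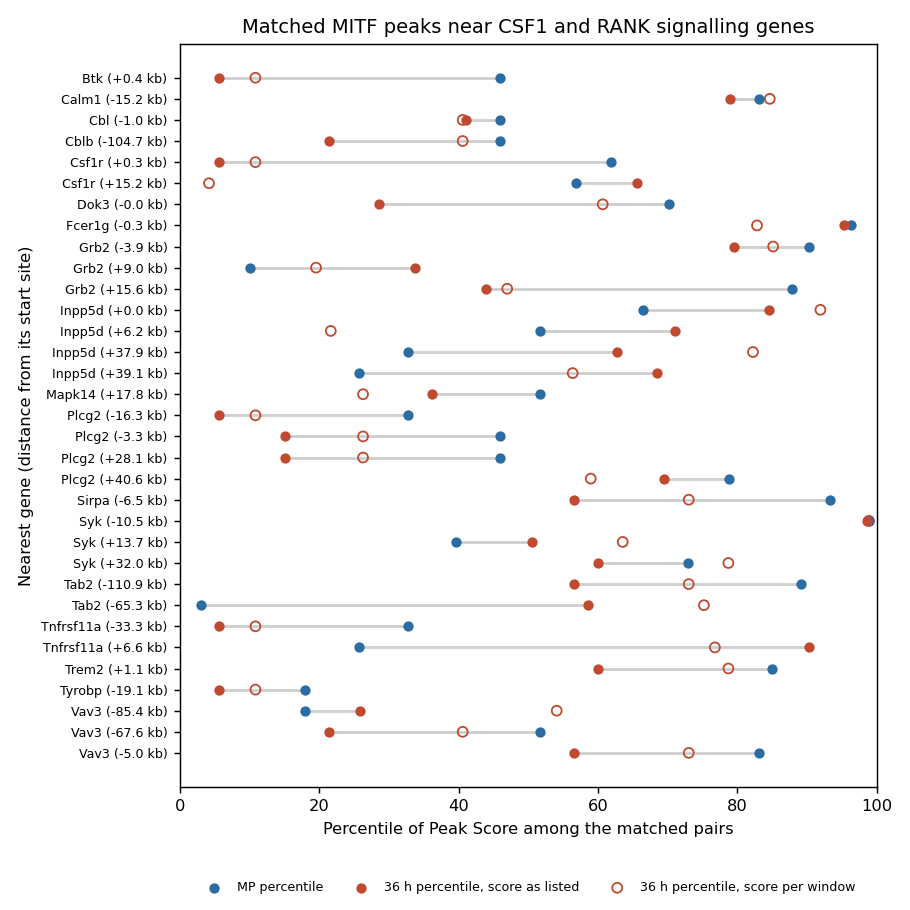
Percentile of Peak Score among the 2506 matched pairs (x axis) for the 33 pairs nearest 18 genes of CSF1 and RANK signalling (y axis, distance of the 36 h peak from the gene start). Blue points are MPs, filled red points 36 h scores as listed and open red points 36 h scores per window. The Tnfrsf11a site at 6.55 kb moves up and the Csf1r site at its start moves down in both rankings.

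Transcription factors listed as promoting OC formation held 44 MP peaks and 32 at 36 h, near 19 and 16 of 30 genes. The labels of this group and the next are broad, and the role of each member in OCs was not checked. Of the MP peaks 21 (47.7%, against 53.6%) lacked a partner, and of the 36 h peaks 9 (28.1%, against 28.5%) did. Nfatc1 had an intronic site at 21.1 kb with scores of 47.8 and 84.7 (percentiles 97.8 and 91.8), and a second, lower MP site at 10.4 kb, with a score of 11.4, had no partner. Mitf, the gene of the factor itself, had 4 MP peaks, of which the highest, with a score of 20.8 in an intron at 22.2 kb, had no partner, and 2 weak pairs scoring 11.4 and 12.5 in MPs and 9.7 and 10.7 at 36 h. Its relative Tfec had a site 57 bp upstream of the start with scores of 12.5 and 36.0, up 39.9 points as listed but down 21.5 per window, and a site at 67.4 kb upstream with 19.7 and 10.7, which fell by 51.5 and by 40.2 per window. Rbpj, the effector of Notch signals, had the highest pair of the group 118 kb upstream, with scores of 57.1 and 169.4 at percentiles 98.8 and 98.7. Fos, which encodes an AP-1 subunit needed for OCs, had a 36 h-only peak 5.08 kb upstream with a score of 31.1, and Stat3 a 36 h-only intronic peak scoring 34.1. No MITF peak of either list was nearest to 10 of the 30 genes. One of these was Fosl2, which the paper reports as a target of both PU.1 and MITF. A peak close to Fosl2 but nearer the start of another gene is not counted here.

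Factors listed as holding back OC formation were marked at 9 of 14 genes in both lists, and the same 9 genes had a peak at each stage. Of their 18 pairs 6 moved up by 25 points or more (against 17.1% of all pairs) and 2 moved down (against 16.6%), and 2 of the 6 and 1 of the 2 also did so per window. Irf8, the best-known of these repressors, had 2 pairs downstream of its start. The first, at 27.1 kb, had scores of 10.4 and 23.4, up 31.0 points as listed and 30.6 per window. The other, at 56.4 kb, had 12.5 and 34.1, up 37.0 and 9.06. The pair 4.56 kb upstream of Bcl6, which encodes a repressor of OC genes, rose by 48.8 points as listed and fell by 13.4 per window. Id2 and Irf2 had pairs that rose by 50.1 and 58.8 points as listed and by 11.95 and 23.4 per window.

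Effector genes of the OC had MITF peaks at fewer genes at 36 h than in MPs, as did protein-coding genes as a whole (2558 against 3610). Of 30 genes for resorption, fusion and adhesion, 13 had an MP peak and 8 had a 36 h peak, all 8 among the 13, where 58.4% of all MP genes were shared. Of their 22 MP peaks 13 (59.1%, against 53.6%) had no partner. The 5 genes with MP peaks only were Tcirg1, a subunit of the proton pump of the ruffled border, with scores of 12.5 and 10.4, Dcstamp, which is needed for cell fusion, with 14.5 at a site 135 kb upstream, Ocstamp, a second fusion gene, with 18.7 and 10.4, Itgav, the integrin alpha v gene, with 18.7 and 14.5, and Lif, a cytokine gene, with 10.4 at both of its sites. The sites of Tcirg1, Itgav and Dcstamp were listed again at 72 h, and those of Ocstamp and Lif were not. Mmp9, the gene of a secreted gelatinase, had an intronic pair with scores of 14.5 and 34.1, up 23.1 points as listed and 42.6 per window. Scin and Tfrc, which encode an actin-severing protein and the transferrin receptor, had pairs that rose by 35.2 and 25.9 points and by 29.99 and 28.95 per window. Atp6v0d2, a proton pump subunit needed for fusion, had an intronic pair with scores of 26.0 and 63.3, which was up 2.06 points as listed but down 61.3 per window. No MITF peak of either list was nearest to 17 of the genes. Among them were Acp5, Ctsk, Oscar and Clcn7, which the paper cites as genes regulated by PU.1 and MITF. A peak close to such a gene but nearer the start of another is not counted here, so binding at these genes is not excluded.

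Lysosome genes and known MiT/TFE targets had an MP peak at 16 of 35 genes and a 36 h peak at 13, with 11 in common, and 17 had none. Of their 28 MP peaks 14 (50.0%, against 53.6% of all MP peaks) lacked a partner. Of their 17 peaks at 36 h 3 (17.6%, against 28.5%) lacked one. Of 14 pairs 3 moved up by 25 points or more (against 17.1% of all pairs) and 3 moved down (against 16.6%). Per window all 3 that rose and 1 that fell still did so. Hexa, which encodes a subunit of beta-hexosaminidase, had 2 intronic pairs that rose by 29.7 and 46.7 points as listed and by 36.7 and 26.5 per window. Rragc, a Rag GTPase gene that controls TFEB, had a weak distal pair with scores of 9.3 and 27.3, up 47.5 points as listed and 60.5 per window. Fnip2, a folliculin partner gene, had the highest 36 h-only peak of the group, scoring 69.1 in an intron with PU.1 at both stages. Lamp1, a lysosomal membrane protein gene, was high at both stages (44.7 and 96.4, percentiles 97.1 and 94.3). The pair at Ctsb, a cathepsin gene, fell by 37.6 points as listed and 42.8 per window. Psap, the prosaposin gene, had a pair that fell by 50.4 points as listed but rose by 1.96 per window. Lamp2, Atp6v1b2, Neu1, Cd63 and Grn had MP peaks only.

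Macrophage and innate genes had MP peaks at 21 of 29 genes and 36 h peaks at 16, with 15 in common, and 7 of the 29 had none. Of their 35 MP peaks 20 (57.1%, against 53.6%) had no partner. Of 15 pairs 5 moved down (against 16.6% of all pairs) and 3 up (against 17.1%), and per window 4 of the 5 and 0 of the 3 did. The pairs down in both rankings were at Fcgr1, a high-affinity IgG receptor (19.7 and 10.7), Msr1, a scavenger receptor (18.7 and 10.7), Mrc1, the mannose receptor (23.9 and 20.4), and Il1b, 2.40 kb upstream (15.6 and 9.7). A second pair at Il1b, 9.84 kb upstream, had 15.6 and 77.9, up 44.4 points as listed and 10.8 per window. Cx3cr1, a chemokine receptor gene, held the highest 36 h score of the group, 264.8 against 42.6 in MPs, at percentiles 99.5 and 96.7. Tlr4 had a peak across its start with scores of 16.6 and 115.8, up 44.8 points as listed and 4.17 per window. Nlrp3, the inflammasome gene, had an MP-only peak 34 bp upstream scoring 17.7 and a 36 h-only peak 981 bp inside it scoring 81.8 over 361 bp, so the gene was shared and the site was not. Ccl2, a monocyte chemokine gene, had 6 MP peaks, of which 1 had a partner, and Ccr2, its receptor gene, had an MP-only peak scoring 17.7. Fcgr2b, an inhibitory IgG receptor gene, had 3 MP peaks and none at 36 h.

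None of 15 B, T and mast cell genes was the nearest protein-coding gene of a MITF peak in either list, and by the transcripts that the files name 1 was, in MPs. Of 9 melanocyte targets of MITF 3 had peaks at both stages, Dct, Mlana and Tyrp1, and their pairs lay 427 kb, 22.3 kb and 523 kb from the gene starts. The Dct pair was high at both stages, with scores of 38.4 and 116.8 at percentiles 94.9 and 96.5.

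The MITF motifs were about as frequent in MITF peaks as beside them, except in MP-only peaks, whose share was above that of the flanking windows with intervals that did not overlap. CACGTG or TCATGTG was found in 6.09% of MP windows (interval 5.48 to 6.76) and in 4.91% of 36 h windows (4.24 to 5.68). Windows of the same length 1000 bp to either side of the peaks held it at 5.17% (4.77 to 5.61) and 5.08% (4.59 to 5.62), and all PU.1 peaks of the same stage at 5.90% and 5.80%. PU.1 peaks of the top 10% without a MITF peak held it at 7.45% in MPs (6.61 to 8.38) and 7.94% at 36 h (7.18 to 8.77), no less than MP-only MITF peaks. In the top 10% of MITF peaks the shares were 4.07% of 540 in MPs and 4.29% of 350 at 36 h. MP-only peaks had the motif at 7.12% (6.24 to 8.11) and matched MP peaks at 4.90% (4.13 to 5.82), and of the motifs alone TCATGTG was at 4.87% and 2.79%, while CACGTG was at 2.42% and 2.15%. The wider form CANNTG, which is met by every CACGTG and every TCATGTG, was in 51.4% of MP and 48.8% of 36 h windows. Beside them it was in 56.1% and 56.5%.

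The PU.1 motif was the frequent one. GAGGAAGT was in 33.7% of MP windows (interval 32.4 to 34.9) and 33.2% of 36 h windows (31.7 to 34.8), in 22.1% and 22.5% of all PU.1 windows, and in 1.10% and 1.07% of the windows beside MITF peaks. PU.1 peaks of the top 10% that carried no MITF peak had it at 32.3% in MPs and 33.3% at 36 h. Matched MP peaks had it at 37.0% (35.1 to 38.9), MP-only peaks at 30.8% (29.1 to 32.5) and 36 h-only peaks at 24.8% (22.2 to 27.5). The 36 h-only share is lowered by the 161 of these 997 peaks that had no PU.1 peak, where GAGGAAGT was at 1.24% (0.34 to 4.42). The 185 36 h MITF peaks without PU.1 had it at 1.62%, and they held an MITF motif at 5.41% (2.96 to 9.66). TGACTCA, the AP-1 site, was in 7.18% of MP windows and 6.17% of 36 h windows and in 2.80% and 2.75% of the windows beside them. All PU.1 peaks held it at 7.21% and 8.31%, and PU.1 peaks of the top 10% without MITF at 10.5% and 12.98%. It was more frequent in MP-only (8.29%, 7.34 to 9.35) than in matched MP peaks (5.90%, 5.04 to 6.89). At 36 h the order was the same, with 7.32% of 36 h-only (5.86 to 9.11) and 5.71% of matched peaks (4.86 to 6.68), though these intervals overlap. In the top 10% of MITF peaks TGACTCA was at 3.52% in MPs and 3.14% at 36 h. TGTGGTT, the RUNX site, was in 5.98% and 5.65%, against 4.09% and 3.77% beside the peaks. A match is a description of the letters and does not show that a factor is bound.

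**Figure D5:**
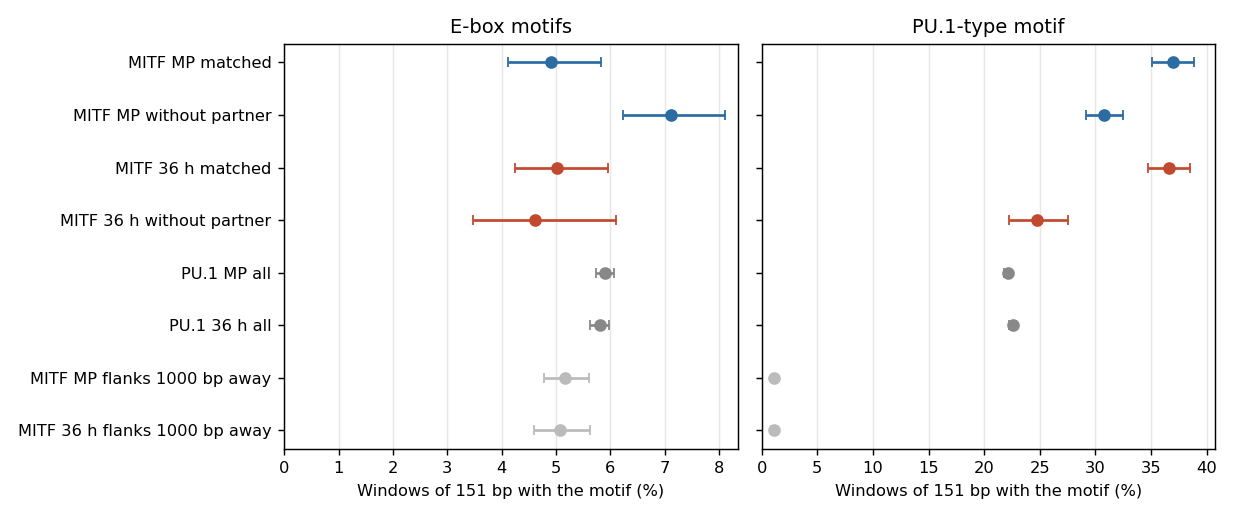
Share of windows about the peak center with a motif (x axes, percent, with 95% Wilson intervals) for matched and stage-only MITF peaks, all PU.1 peaks and windows 1000 bp from MITF peaks. The E-box motifs (left) lie between 4.61% and 7.12% in every set, and the PU.1-type motif (right) is at 24.8% to 37.0% of MITF windows and near 1% beside them.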

How the data were processed

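PU.1, MITF and IgG ChIP-Seq peaks were taken from 7 deposited lists, 1 per library and sample, and samples were grouped by their labels. The submitters' processing notes name CASAVA 1.8, Bowtie2, HOMER and the mm9 build, and the deposited lists name the nearest RefSeq transcript of each peak. Versions of the mapper and caller, and the calling settings, are not given in the sources used here. The authors' Peak Score is a score: tags per peak scaled to a common library size. Scores were whole multiples of 1 value in each list to within 0.0572, which gave tags per peak. Peaks on chromosomes other than 1 to 19 and X (11 of 5413 MITF MP peaks and 37 of 3540 MITF 36 h peaks) were left out.

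Overlaps were of at least 1 bp on the coordinates as deposited, and counts matched bedtools 2.31.1. A 36 h peak with 2 MP partners (2 peaks) was paired with the higher one. Percentiles were taken among the pairs, with ties at their mean. Genes, distances and exons were read at the peak center on GENCODE M1 for mm9, gene symbols matched through RefSeq synonyms, and sequences from the mm9 genome. A site was called intronic or exonic when its center lay in an intron or exon of any annotated gene. That gene need not be the one named for the site, which is the nearest by start site. The matching, rank, distance and motif code was tested on simulated data with known answers. Python 3.11.15, pandas 2.3.3, numpy 2.4.6, scipy 1.17.1 and matplotlib 3.10.9 were used.

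The members, the gene lists and the measures were chosen with earlier results of these data known. Named genes were those of the lists with a MITF peak, those at the 10 highest pairs, the 10 highest peaks without partner in each list, the 10 largest rises and falls in percentile, the 5 widest 36 h peaks and the 5 genes with most peaks in each list. Of the list genes described, those named were chosen for the text after their values were seen. Alternatives, whose effects are given in the closing section, were other overlap rules, score thresholds, equal list sizes, removal of IgG peaks, all chromosomes, other rankings, annotations and window lengths.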

Additional observations from a re-analysis of the deposited data

How the results depend on the processing

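With scores of at least 2 times the lowest of each list, 73.1% of MP peaks had a 36 h partner, 41.0% of 36 h peaks had an MP partner, 99.5% of MP peaks had PU.1 and 25.5% of nearest transcripts were shared. With equal numbers of peaks the partner shares were 59.9% in both lists and 31.5% of transcripts were shared. The shares of the 2 lists are then alike by construction. Without the runs of unmatched 36 h peaks, an alternative chosen after seeing the data, 73.8% of 36 h peaks had a partner and 97.5% had PU.1. PU.1 was at 93.9% of 36 h peaks with centers within 100 bp and at 93.8% with all chromosomes. Percentiles in each whole list gave 9.66% of pairs up and 26.7% down, and a limit of 40 points gave 7.74% and 8.18%. The nearest GENCODE gene of any type was shared at 49.9%. Windows of 50 bp to each side held an MITF motif at 4.00% in MPs and 3.14% at 36 h, and windows of 100 bp at 7.79% and 6.62%. The cause of these differences was not tested. The other 26 values under alternatives moved by less than their counting interval.

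No paired analysis was possible because each condition was 1 library and no result came from a test. No replicate was left out, as there was 1 per condition. The lists hold no value for a site below their limits. The lowest MP peaks rest on 9 tags and the lowest 36 h peaks on 10, and loss at these counts cannot be told apart from counting error in 1 library.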
